A study of Mus musculus with 6 samples.

Results

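The CDK inhibitor genes were followed in limb bone of 1 day-old mice, in 3 wild type libraries and 3 libraries labelled Hdac3 CKO. The 8 genes were taken by symbol from a deposited table of 43346 genes: Cdkn1a, Cdkn1b, Cdkn1c, Cdkn2a, Cdkn2b, Cdkn2c, Cdkn2d and Cdkn3. All mice carry the strain label C57BL/6, and the series design names the mutant Hdac3 CKOPRX1, a conditional knockout of the histone deacetylase gene Hdac3 with Prx1. Prx1 (Prrx1) Cre is commonly active in limb bud mesenchyme, the source of bone, cartilage and tendon cells, and not in blood cells or muscle fibres. The labels give neither the alleles of the wild type pups nor whether each library is 1 animal, so each p-value reflects how far these libraries scatter, and that scatter may be technical.

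CDK inhibitors are small proteins that hold back the cyclin-dependent kinases, the enzymes that drive a cell through its division cycle. The CIP/KIP members p21 (Cdkn1a), p27 (Cdkn1b) and p57 (Cdkn1c) bind whole cyclin-CDK complexes, while the INK4 members p16 (from Cdkn2a), p15 (Cdkn2b), p18 (Cdkn2c) and p19 (Cdkn2d) bind CDK4 and CDK6 and keep cyclin D off. Cdkn2a also encodes ARF, which stabilises p53 through MDM2, and Cdkn3 encodes a phosphatase that acts on CDK2. In the growing skeleton p57 is known for its part in the exit of chondrocytes from the cell cycle, and p21 is the classic target of p53.

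Total counts per library ran from 43389262 to 50927978. Hdac3 itself stood at 47.4 to 50.3 CPM (read counts scaled to library size, with TMM factors) in wild type and at 28.3 to 31.8 CPM in Hdac3 CKO, without overlap (log2 fold change of -0.71 ± 0.12, SE). Bone was checked by its markers: summed osteoblast markers were 24587 to 32987 CPM in wild type and 38724 to 58053 CPM in Hdac3 CKO, without overlap. The 6 markers did not move together, as 4 had a log2 fold change above 0 and 2 below. In every Hdac3 CKO library 3 were higher and 1 was lower, against 11.5% and 10.9% of all tested genes. An unadjusted p under 0.05 in edgeR was found for 3, against 15% of all tested genes. In that fit 0 of the 6 passed an adjusted p of 0.05. Summed skeletal muscle markers were 22507 to 26835 CPM and 24318 to 40346 CPM, so muscle RNA was present beside bone. Wild type replicate 3 and Hdac3 CKO replicate 3 held the most cartilage RNA, with 6304 and 13667 CPM of summed markers against 743 to 1348 CPM in the other 4. Hdac3 CKO replicate 1 had the highest muscle sum, and Hdac3 CKO replicate 3 alone had high Y-linked genes, 132 CPM against at most 5.60 CPM. In bulk RNA, fewer cells of a type and less RNA per cell cannot be told apart.

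The sequence before the start sites is shown for Cdkn1a, the member that rose, and for Cdkn1b, its CIP/KIP relative on the other side of 0. The windows are the 250 bases before each RefSeq start on GRCm38.p6, all on the + strand, read 5′ to 3′. Capitals mark the GC box GGGCGG and the CCAAT box, searched on both strands together with the TATA box TATAAA and the cell cycle homology region TTTGAA.
Cdkn1a, downstream start, chr17:29093519-29093768: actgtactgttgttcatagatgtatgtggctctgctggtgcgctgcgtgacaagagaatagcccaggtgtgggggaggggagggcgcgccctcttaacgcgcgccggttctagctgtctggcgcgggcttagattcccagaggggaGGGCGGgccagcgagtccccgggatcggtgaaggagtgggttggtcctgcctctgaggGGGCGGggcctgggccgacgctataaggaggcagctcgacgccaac
Cdkn1b, chr6:134920151-134920400: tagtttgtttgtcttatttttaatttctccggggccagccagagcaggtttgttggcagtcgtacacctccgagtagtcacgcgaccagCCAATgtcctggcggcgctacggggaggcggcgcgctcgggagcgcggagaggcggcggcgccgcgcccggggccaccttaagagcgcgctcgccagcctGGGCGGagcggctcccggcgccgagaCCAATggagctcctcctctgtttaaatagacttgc

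Cdkn1a (ENSMUSG00000023067, chromosome 17, 29090979 to 29100722 on mm10) has 2 RefSeq starts, and its counts do not separate them. The downstream window holds 2 GC boxes, the first beginning 104 and the second 46 bases before the start, and has 64.8% GC. It lies in an intron of the longer transcripts. The window before the upstream start holds none of the 4 motifs and has 54.0% GC. The Cdkn1b window holds 1 GC box and 2 CCAAT boxes. RefSeq windows were found for 7 of the 8 members, 10 windows in all. Of the 32851 windows of the same length in the RefSeq table, 32.7% hold the GC box, 33.8% the CCAAT box, 12.4% the TATA box and 16.0% the cell cycle homology region, so a match to the GC or CCAAT box is common. Cdkn3 has 3 CCAAT boxes and 1 cell cycle homology region, while Cdkn2c (3) and Cdkn2d (3) have the most GC boxes in a single window.

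Levels of different genes were compared in deposited RPKM, a read density scaled to gene length and library depth. For 4 members (Cdkn1a, Cdkn1c, Cdkn2d and Cdkn3) the deposited length is shorter than the exons in GENCODE M21, most for Cdkn3 (773 against 2371 bases). With the M21 lengths the order below was the same in 6 of 6 libraries, and Cdkn3 stood at 1.31 RPKM in wild type. Cdkn1c was the most abundant member, with 370 ± 29.6 RPKM (SD, n = 3) in wild type and 551 ± 157 RPKM in Hdac3 CKO. Cdkn1a followed with 65.1 ± 11.7 RPKM in wild type and 120 ± 20.9 RPKM in Hdac3 CKO. The third member was Cdkn2d, at 14.0 ± 1.04 RPKM in wild type and 15.3 ± 3.66 RPKM in Hdac3 CKO.

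The order went on with Cdkn1b, Cdkn2c and Cdkn3, at 9.0, 6.36 and 4.02 RPKM on average in wild type and 6.19, 4.51 and 3.04 RPKM in Hdac3 CKO. Cdkn2b (0.659 and 0.551 RPKM) and Cdkn2a (0.133 and 0.143 RPKM) came last. All 6 libraries gave this same order, and within each genotype no member's range touched that of the next. The closest neighbours were Cdkn1b and Cdkn2c in Hdac3 CKO, where the lowest Cdkn1b value was 5.68 RPKM and the highest Cdkn2c value 5.62 RPKM. Of the family's summed RPKM, Cdkn1c held 78.9% ± 1.44 in wild type and 78.3% ± 1.94 in Hdac3 CKO. The share of Cdkn1a was 13.8% ± 1.8 and 17.4% ± 1.62, with overlapping libraries.

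**Figure D1:**
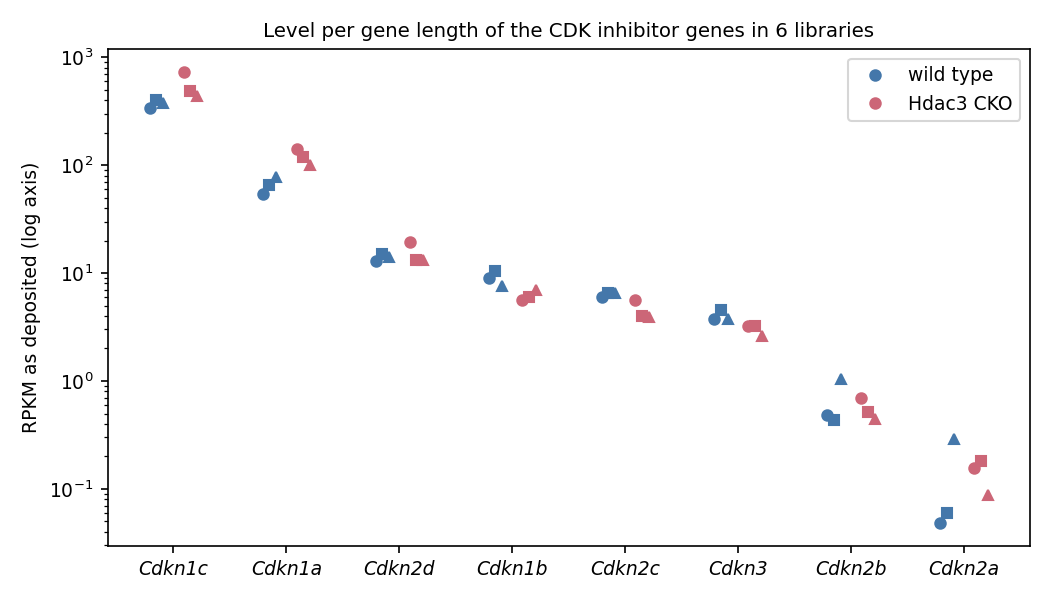
RPKM of the 8 CDK inhibitor genes on a log axis, 3 wild type (blue) and 3 Hdac3 CKO (red) libraries, with circle, square and triangle for replicates 1, 2 and 3. The order from Cdkn1c to Cdkn2a is the same in all 6 libraries, and the wild type means span a 2791-fold range.

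Among the CIP/KIP genes, Cdkn1a rose in Hdac3 CKO. Its values were 158, 162 and 204 CPM in wild type replicates 1, 2 and 3, against 411, 347 and 298 CPM in Hdac3 CKO replicates 1, 2 and 3. Every Hdac3 CKO library lay above every wild type library, and the mean went from 174 ± 25.7 CPM to 352 ± 56.9 CPM (SD, n = 3). The fold was 2.02, a log2 fold change of 1.01 ± 0.17 (SE) with a 95% interval of 0.64 to 1.38 and an adjusted p of 0.025 (edgeR). It was the 1 member of the 7 tested that passed, where 1.18% of all 20210 tested genes passed: 1 member rose, against 0.703% of all genes, and 0 fell, against 0.475%. At an unadjusted p under 0.05 there were 3 members of 7 and 15% of all tested genes, and DESeq2 called 2 members.

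The direction of Cdkn1a was the same under all 26 alternatives run, with values from 0.82 to 1.25. The call was lost without wild type replicate 1 (adjusted p of 0.118 in edgeR), without wild type replicate 2 (0.126) and when Hdac3 CKO replicate 3 was dropped (0.056), and it was held without any one of the other 3 libraries. It was also lost in limma on the deposited RPKM (adjusted p of 0.107 on log2(RPKM + 1)) and when both cartilage-rich libraries were dropped (0.099 in edgeR). When libraries were scaled by their totals instead, the middle of all tested genes moved to -0.18, and Cdkn1a stood at 0.82, which is 1.01 relative to that median (adjusted p of 0.0502 in edgeR). Under that scaling 58 genes of the whole table rose and 120 fell, against 142 and 96 with TMM factors. Macrophage markers moved in the same direction: 5 of 6 rose, against 0.703% of all tested genes. Their sum was 199 to 240 CPM in wild type and 382 to 490 CPM in Hdac3 CKO. Neutrophil markers moved the other way, with 4 of 6 falling, against 0.475% of all tested genes. Their sums went from 75.7 to 223 CPM in wild type to 16.2 to 23.1 CPM in Hdac3 CKO. Of 6 B lymphoid markers 1 fell, and of 5 erythroid markers 1 fell, against the same 0.475%. Of the B lymphoid markers 5 were lower without overlap, against 10.9% of all tested genes. Of 3 tested megakaryocyte markers 1 rose (Pf4), against 0.703%, and 2 stood below 0, with a median log2 fold change of -0.31. The sum of that list was 24.6 to 28.4 CPM in wild type and 36.5 to 48.4 CPM in Hdac3 CKO. Of 5 osteoclast markers 0 passed the test, with sums of 1292 to 2348 CPM in wild type and 2397 to 3118 CPM in Hdac3 CKO. All 5 stood above 0, with a median log2 fold change of 0.88. All 5 had an unadjusted p under 0.05 in edgeR, against 15% of all tested genes. Without overlap 3 were higher and 0 lower, against 11.5% and 10.9%. No list had a marker at 0 in all libraries of a genotype, and the part of these cell types and of osteoblasts in the Cdkn1a value was not tested. With skeletal muscle markers as a covariate Cdkn1a stood at 0.84 (adjusted p of 0.067 in edgeR), and with cartilage markers at 1.01 (0.047). With erythroid markers, whose sums did not overlap between the genotypes, it stood at 1.00 (0.74).

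The genes nearest to Cdkn1a in pattern were chosen among 13749 other protein-coding genes by the root mean square difference of centred log2 CPM over the 6 libraries, which share depth and normalisation. They were Hmox1 (heme oxygenase 1), at a difference of 0.073, Csf1r (the M-CSF receptor of macrophages and osteoclast precursors), at 0.099, and the dipeptidase gene Dpep1, at 0.099. The median gene differed by 0.55. On the chromosome, the nearest tested genes on either side of Cdkn1a overlapped between the genotypes. Trp53cor1, the lincRNA-p21 gene, begins at 29057474 and ends 12017 bases before Cdkn1a. It measured 3.12, 4.30 and 5.59 CPM in wild type, against 4.99, 3.01 and 4.44 CPM in Hdac3 CKO, a log2 fold change of -0.06 ± 0.27 (SE). Gm16194, on the other side, stood at -0.70 ± 0.40 (adjusted p of 0.44 in edgeR).

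**Figure D2:**
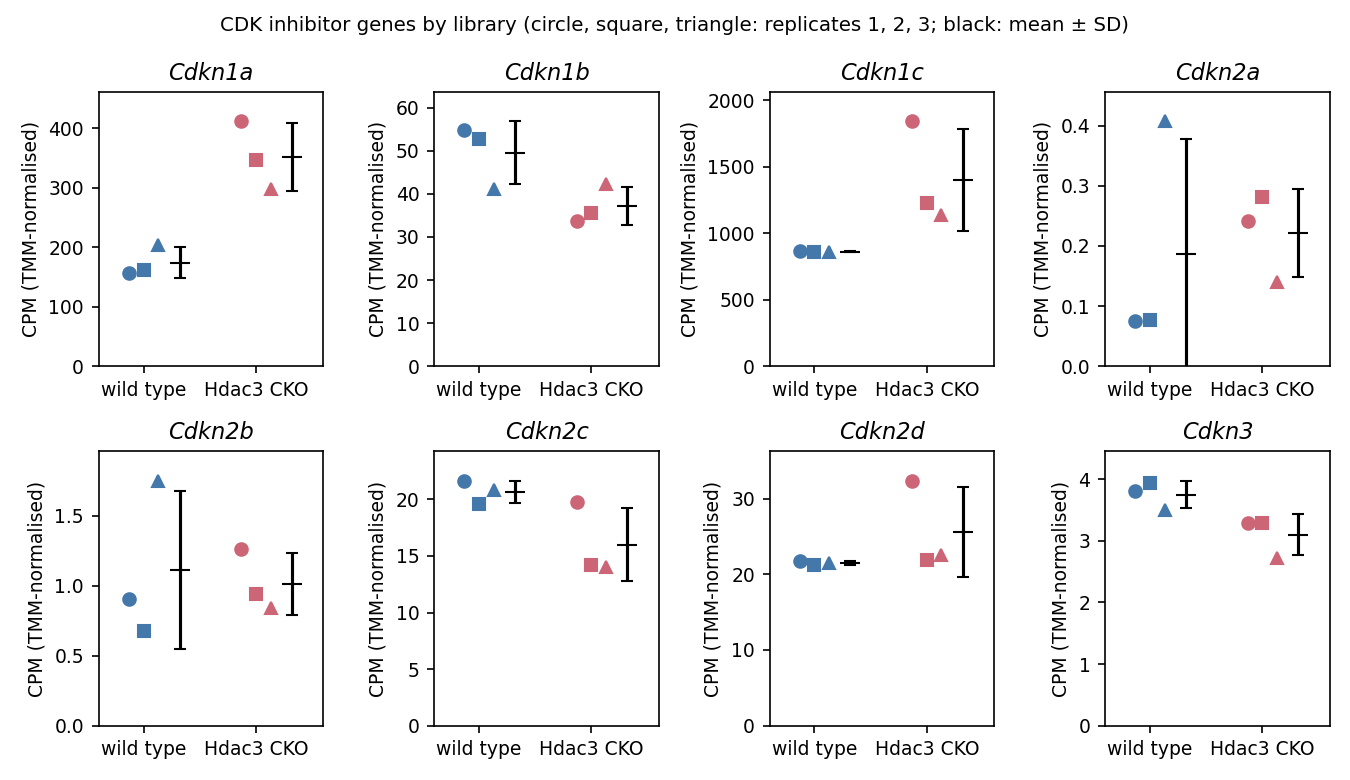
TMM-normalised CPM of each CDK inhibitor gene by library, on axes from 0, with the mean and SD of 3 libraries in black (the bar of Cdkn2a is clipped at 0). Cdkn1a and Cdkn1c are higher in every Hdac3 CKO library, and replicate 1 is the highest Hdac3 CKO library for both.

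Cdkn1c (ENSMUSG00000037664, chromosome 7, 143458350 to 143461050), expressed from the maternal copy, was higher in every Hdac3 CKO library without passing the test. It measured 870, 858 and 862 CPM in wild type, against 1842, 1232 and 1136 CPM in Hdac3 CKO. The wild type libraries had an SD of 6.17 CPM, while Hdac3 CKO replicate 1 was far above the other two. The log2 fold change was 0.70 ± 0.19 (SE), with a 95% interval of 0.27 to 1.13 and an adjusted p of 0.13 (edgeR). DESeq2 called it higher, with an adjusted p of 0.017. Without Hdac3 CKO replicate 1 it stood at 0.45, and with muscle markers as a covariate at 0.37. That library had the highest muscle sum and also the highest osteoblast and macrophage sums. The part of each in the Cdkn1c value was not tested. The RPKM ratio of Cdkn1a to Cdkn1c within a library was 0.157, 0.164 and 0.206 in wild type and 0.194, 0.245 and 0.228 in Hdac3 CKO, which overlap.

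Cdkn1b (ENSMUSG00000003031, chromosome 6, 134920401 to 134925513) lay on the other side of 0. It measured 54.7, 52.6 and 41.2 CPM in wild type, against 33.8, 35.6 and 42.2 CPM in Hdac3 CKO. Wild type replicate 3 and Hdac3 CKO replicate 3, the cartilage-rich libraries, lay closest together and crossed. In RPKM, which carries no TMM factor, the genotypes did not overlap, at 7.58 to 10.4 RPKM in wild type and 5.68 to 6.92 RPKM in Hdac3 CKO. The log2 fold change was -0.41 ± 0.15 (SE), with a 95% interval of -0.75 to -0.071 and an adjusted p of 0.25 in edgeR. Without both cartilage-rich libraries it stood at -0.63.

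The balance of p21 to p27 transcripts can be read within a library, free of the scaling. The RPKM of Cdkn1a was 5.89, 6.29 and 10.1 times that of Cdkn1b in wild type and 24.9, 19.9 and 14.4 times in Hdac3 CKO. These ratios did not overlap between the genotypes. Cdkn1a also stood above Cdkn2c by 8.82, 9.96 and 11.9 times in wild type and by 25.2, 29.6 and 25.6 times in Hdac3 CKO, again without overlap. The size of these ratios depends on the length of Cdkn1a, which is 2223 bases as deposited and 3553 bases in M21. With the M21 lengths Cdkn1a averaged 40.8 RPKM in wild type and 75.1 RPKM in Hdac3 CKO, so each ratio is lower. The lengths of Cdkn1b and Cdkn2c stay the same. A length applies to all libraries alike, so the lack of overlap does not depend on it. The ratios were looked at after the values of the single genes and carry no test.

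**Figure D3:**
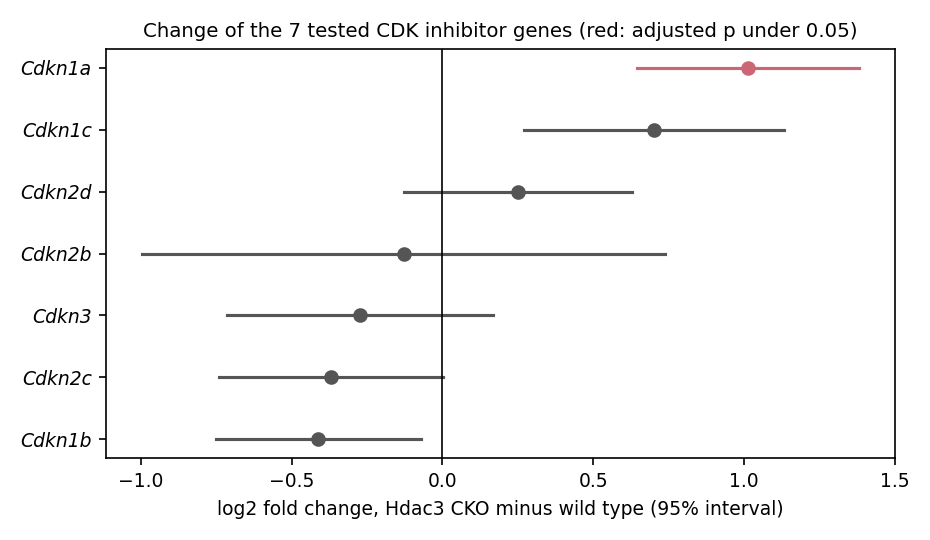
Log2 fold change of the 7 tested members, Hdac3 CKO minus wild type, with 95% intervals from the edgeR fit. Only Cdkn1a (red) passed an adjusted p of 0.05 in that fit. The intervals of Cdkn1c (0.27 to 1.13) and Cdkn1b (-0.75 to -0.071) leave out 0 before adjustment over all genes.

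Among the INK4 genes, 0 of the 3 tested members rose or fell. Cdkn2c (ENSMUSG00000028551, chromosome 4, 109660876 to 109667189) measured 21.6, 19.6 and 20.8 CPM in wild type, against 19.7, 14.2 and 14.1 CPM in Hdac3 CKO. In CPM, Hdac3 CKO replicate 1 lay among the wild type libraries and the other two below them. In RPKM all 3 lay below, at 3.91 to 5.62 RPKM against 6.06 to 6.54 RPKM. Its log2 fold change was -0.37 ± 0.17 (SE), with a 95% interval of -0.74 to 0.00029 and an adjusted p of 0.33 in edgeR, and it was -0.56 without Hdac3 CKO replicate 1.

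Cdkn2d (ENSMUSG00000096472, chromosome 9, 21288463 to 21291209) measured 21.8, 21.2 and 21.5 CPM in wild type, against 32.4, 21.9 and 22.5 CPM in Hdac3 CKO. Hdac3 CKO replicate 1 alone stood apart, and the other two lay just above the wild type range. The log2 fold change was 0.25 ± 0.17 (SE), with a 95% interval of -0.13 to 0.63 and an adjusted p of 0.51 in edgeR. Without Hdac3 CKO replicate 1 it was 0.035, and in RPKM the genotypes overlapped.

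Both genes of the Cdkn2a and Cdkn2b locus on chromosome 4 were near the limit of detection. Cdkn2b (ENSMUSG00000073802, 89306289 to 89311032) had 48, 35 and 86 counts in wild type and 52, 40 and 36 counts in Hdac3 CKO. Its highest value, 1.75 CPM, was that of wild type replicate 3, and its log2 fold change of -0.13 had a 95% interval from -1.0 to 0.74. Without wild type replicate 3 the value was 0.35, so its direction was not settled by these libraries. Cdkn2a (ENSMUSG00000044303, 89274471 to 89294653) did not pass the filter on low counts. It had 4, 4 and 20 counts in wild type and 10, 12 and 6 counts in Hdac3 CKO, which is 28 counts in each genotype. After scaling, the ratio of Hdac3 CKO to wild type was 1.21 with a 95% exact interval of 0.693 to 2.13, which covers counting error only. The row joins the transcripts of p16 and ARF, which start at separate sites, so p16 and ARF cannot be told apart here.

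Cdkn3 (ENSMUSG00000037628, chromosome 14, 46760541 to 46771525), whose phosphatase is made mainly by dividing cells, measured 3.81, 3.94 and 3.50 CPM in wild type, against 3.29, 3.29 and 2.72 CPM in Hdac3 CKO. All Hdac3 CKO libraries lay below the wild type range. The log2 fold change was -0.27 ± 0.20 (SE), with a 95% interval of -0.72 to 0.17 and an adjusted p of 0.53 in edgeR. Over the family, in CPM, 3 tested members were higher in every Hdac3 CKO library (Cdkn1a, Cdkn1c and Cdkn2d) and 1 was lower in every one (Cdkn3). Over all tested genes 11.5% were higher and 10.9% lower without overlap, 22.5% together. In RPKM the tally was 2 higher (Cdkn1a and Cdkn1c) and 3 lower (Cdkn1b, Cdkn2c and Cdkn3), where 4.65% of all tested genes were higher and 17.9% lower. For each of the 4 members separated in CPM, p was 0.1 by exact permutation (two-sided), and no smaller p is possible with 3 libraries a group.

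**Figure D4:**
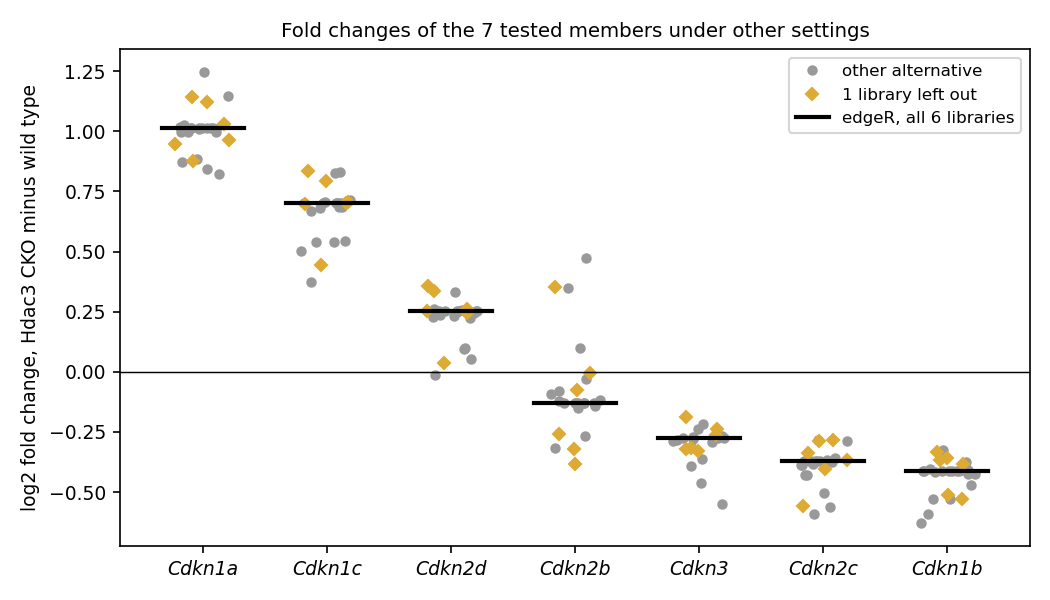
Log2 fold changes of the 7 tested members in edgeR with all 6 libraries (black bars), with 1 library left out (yellow diamonds) and under the other alternatives (grey). Cdkn1a stays between 0.82 and 1.25, Cdkn1b between -0.63 and -0.32, and Cdkn2b lies on both sides of 0.

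The genes of the proteins that the inhibitors act on showed no call in edgeR. At an unadjusted p under 0.05 there were 2 of the 12 cyclins and CDKs, against 15% of all tested genes. There were 0 of the 8 activating and inhibitory enzymes and 1 of the 10 ubiquitin ligase genes below. DESeq2 called 0 in these 3 lists. Of 12 cyclins and CDKs 0 rose or fell, with a median log2 fold change of -0.05, against 0.0010 over all tested genes. Ccna2 (cyclin A2, of S and G2 phase) stood at -0.31 ± 0.12 (SE) and Ccnd1 (cyclin D1, the partner of CDK4 and CDK6) at 0.33 ± 0.13, both without overlap between the genotypes. Without overlap 1 of the 12 was higher and 3 were lower, against 11.5% and 10.9% of all tested genes. Of 8 genes of the CDK-activating kinase, the CDC25 phosphatases and the WEE1-type kinases 0 rose or fell, with a median of -0.0074. Ccnh, the cyclin of the activating kinase, stood at -0.23 ± 0.14 and Cdc25c at -0.26 ± 0.18.

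Of 13 pocket proteins and E2F factors 0 rose or fell in edgeR, and the median was -0.11. At an unadjusted p under 0.05 there were 4 of 13, against 15% of all tested genes, and DESeq2 called 1, which was lower. E2f5, a repressive E2F, measured 8.87, 8.08 and 8.16 CPM in wild type, against 5.25, 4.77 and 5.88 CPM in Hdac3 CKO, a log2 fold change of -0.66 ± 0.17 (SE; adjusted p of 0.11 in edgeR). Rbl1, the pocket protein p107, measured 21.7, 24.0 and 20.2 CPM in wild type, against 14.0, 16.7 and 16.0 CPM in Hdac3 CKO, or -0.50 ± 0.14. Both are among the 6 genes of the 13 that were lower in every Hdac3 CKO library, against 10.9% of all tested genes. Another 2 were higher in every one, against 11.5%. Of 10 genes of the ubiquitin ligases that degrade CIP/KIP proteins 0 rose or fell, with a median of 0.03. Ddb1 stood at 0.36 ± 0.14 and Cul4b at -0.43 ± 0.21.

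Among factors known to act on CDK inhibitor genes, 17 of 18 were tested, 0 rose or fell in edgeR, and the median was 0.0038. At an unadjusted p under 0.05 there were 4 of 17, against 15% of all tested genes, and DESeq2 called 1, which was higher. Trp63, a p53 relative of epithelia, measured 4.42, 4.50 and 3.40 CPM in wild type, against 6.66, 7.12 and 6.39 CPM in Hdac3 CKO, a log2 fold change of 0.71 ± 0.19 (SE; adjusted p of 0.12 in edgeR). Summed epidermis markers were 3.82 to 11.4 CPM in wild type and 7.41 to 30.5 CPM in Hdac3 CKO, and their part in the Trp63 value was not tested. Foxo3, a forkhead factor, stood at 0.37 ± 0.12, without overlap. Of the 17 factors 3 were higher without overlap and 1 lower, against 11.5% and 10.9% of all tested genes. Trp53 at 0.16 ± 0.15 and its feedback ligase gene Mdm2 at -0.03 ± 0.16 overlapped between the genotypes, and these 2 were picked for mention after their values were seen.

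Of 18 other p53 targets 2 rose, against 0.703% of all tested genes, and 0 fell. Above 0 stood 15 of the 18, against 10132 of all 20210, and the median was 0.27. An unadjusted p under 0.05 in edgeR was found for 9, against 15% of all tested genes. Gdf15, a stress-induced cytokine, measured 0.282, 0.252 and 0.366 CPM in wild type, against 1.43, 0.987 and 1.42 CPM in Hdac3 CKO, and rose by 2.08 ± 0.34 (SE; adjusted p of 0.025 in edgeR). Phlda3, an inhibitor of AKT signalling, measured 30.6, 29.7 and 32.4 CPM in wild type, against 65.0, 47.8 and 50.9 CPM in Hdac3 CKO, and rose by 0.82 ± 0.15. No target of the list was called without any one wild type library or without Hdac3 CKO replicate 3, so the count of 2 rests on those libraries. It was also 0 with the muscle covariate, with the erythroid covariate and when both cartilage-rich libraries were dropped. The count was 5 in DESeq2, 4 when low counts were not filtered and 1 under scaling by library totals. It was also 1 in both limma fits on RPKM, with the cartilage covariate and with the Y-linked covariate. When a CPM of at least 1 in 3 libraries was required, 17 of the list were tested and 1 was called. Without overlap, 9 of the 18 were higher and 2 lower in Hdac3 CKO, against 11.5% and 10.9% of all tested genes.

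**Figure D5:**
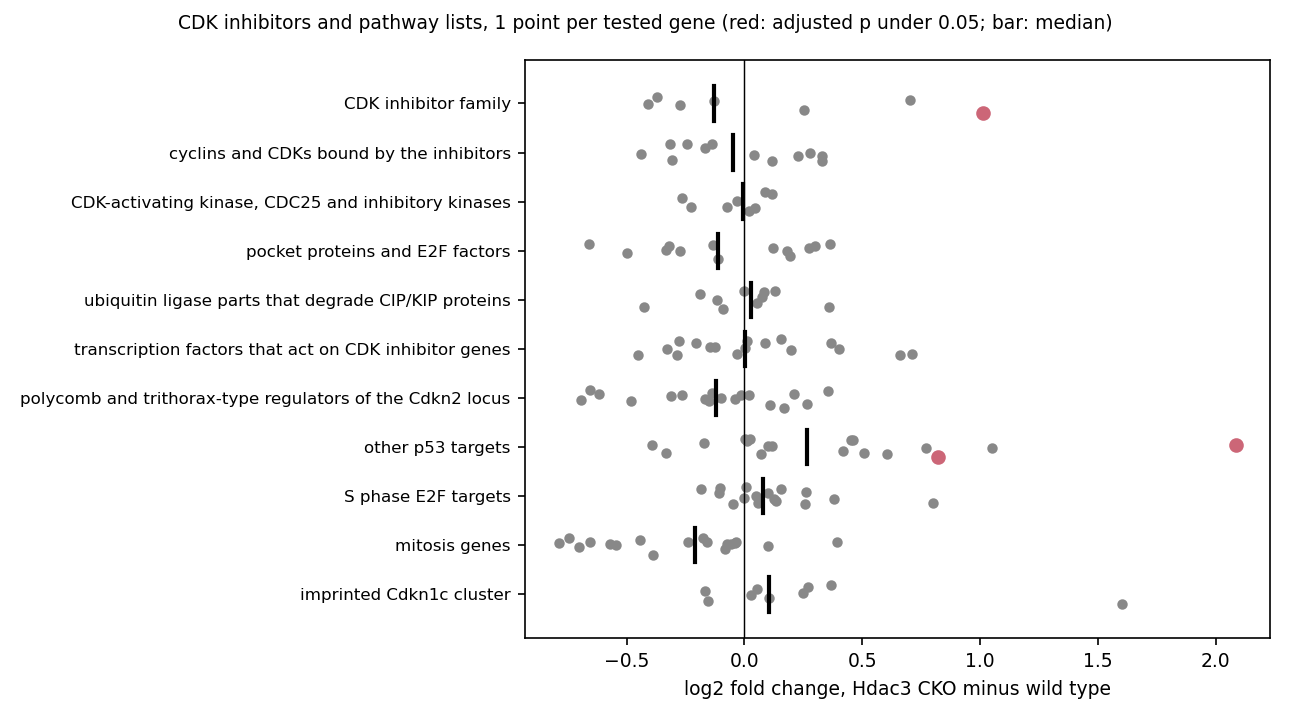
Log2 fold changes of the tested CDK inhibitors and of 10 pathway lists, 1 point per gene, with the list median as a bar. Red points passed an adjusted p of 0.05 in edgeR, namely Cdkn1a, Gdf15 and Phlda3, and the mitosis genes lie mostly below 0.

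The downstream cell cycle programmes showed no call in edgeR in either direction. Of 16 S phase genes driven by E2F 0 rose or fell, with a median of 0.08. An unadjusted p under 0.05 was found for 2, against 15% of all tested genes, and DESeq2 called 1 higher. Ung, the uracil-DNA glycosylase, measured 7.76, 5.82 and 8.81 CPM in wild type, against 15.4, 11.5 and 12.1 CPM in Hdac3 CKO, or 0.80 ± 0.20 (SE; adjusted p of 0.10 in edgeR), and the replication licensing gene Cdt1 at 0.38 ± 0.16. Of 18 mitosis genes 0 rose or fell, and the median was -0.21. Below 0 stood 16 of the 18, against 10078 of all 20210 tested genes. An unadjusted p under 0.05 was found for 6, against 15% of all tested genes, and DESeq2 called 1 lower. Without overlap 6 of the 18 were lower and 0 higher, against 10.9% and 11.5% of all tested genes. The sum of the list, in which the most counted genes weigh most, overlapped between the genotypes. It was 2591 to 3001 CPM in wild type and 2748 to 3967 CPM in Hdac3 CKO. The checkpoint kinase gene Bub1 measured 23.1, 20.6 and 17.4 CPM in wild type, against 8.18, 15.2 and 13.1 CPM in Hdac3 CKO, or -0.74 ± 0.22 (adjusted p of 0.17 in edgeR). Hmmr, which encodes a spindle-associated protein, stood at -0.70 ± 0.22. Hdac3 CKO replicate 1 was lowest for both, and Cdkn3 had its lowest value in replicate 3.

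Of 18 regulators of the Cdkn2 locus, mostly polycomb subunits, 0 rose or fell and the median was -0.12 in edgeR. Below 0 stood 12 of the 18, against 10078 of all 20210 tested genes. An unadjusted p under 0.05 was found for 4, against 15%, and DESeq2 called 1 lower. Bmi1, a polycomb repressor of Cdkn2a, measured 16.3, 17.8 and 15.4 CPM in wild type, against 7.05, 11.3 and 12.2 CPM in Hdac3 CKO, a log2 fold change of -0.69 ± 0.21 (SE; adjusted p of 0.16 in edgeR). Ezh2, the methyltransferase of the other polycomb complex, stood at -0.62 ± 0.19, and both lay below the wild type range in every Hdac3 CKO library. Of the 18 regulators 4 were lower without overlap and 0 higher, against 10.9% and 11.5% of all tested genes. In the imprinted cluster around Cdkn1c, 9 of 10 genes were tested, 0 rose or fell in edgeR, and the median was 0.10. An unadjusted p under 0.05 was found for 1, and DESeq2 called 0. Without overlap 2 of the 9 were higher and 0 lower, against 11.5% and 10.9% of all tested genes. Tssc4 stood at 0.37 ± 0.13, without overlap, and the sparsely counted Ascl2 at 1.6 ± 0.82 with overlapping libraries. The nearest tested genes on either side, Kcnq1 at 0.03 ± 0.21 and Slc22a18 at 0.27 ± 0.38, overlapped as well, and were picked for mention after their values were seen.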

How the data were processed

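Read counts, deposited by the authors as whole numbers for each gene, and the authors' RPKM values were the starting point. The submitters' processing notes list bcl2fastq 1.8.4, TopHat2 2.1.0, Subread, featureCounts and mm10. How strand and multiply matched reads were handled, and which annotation was used, is not given in the sources used here. In GENCODE M21 (98.0% of gene IDs found), an antisense gene shares 273 exon bases with Cdkn1a and another 625 with Cdkn1c. RPKM carries no TMM factor.

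Counts of genes passing filterByExpr (20210) were fitted in edgeR 4.0.16 (R 4.3.3) with TMM factors and robust quasi-likelihood, with 4 residual degrees of freedom. P-values were adjusted by Benjamini-Hochberg over all tested genes, and calls were made under 0.05. The option legacy = FALSE was chosen after calls had been seen. The first fit used the default, legacy = TRUE, and called 226 genes. In all 18 edgeR settings were then compared, and legacy = FALSE, with 238 calls, was taken because it matched the numbers of calls known from an earlier analysis of these data. Each of the 18 settings called 1 member, Cdkn1a. On simulated counts for this comparison (19752 genes) 76% of 2-fold and 100% of 4-fold changes were called, and 6.88% of calls were unchanged genes. The changed genes were drawn only from those with a mean count of at least 100. These shares therefore do not cover genes with fewer counts, such as Cdkn2b.

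Alternatives used DESeq2 1.42.0, limma 3.58.1, other scalings, filters, covariates and left-out libraries. Members, lists and tests were chosen with earlier results of these data known. Named were all 8 members, in each list the called genes and the 2 with the smallest p, the 3 genes most like a called member (mean CPM of at least 1), and nearest tested neighbours.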

Additional observations from a re-analysis of the deposited data

How the results depend on the processing

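Cdkn1a, the 1 member called, was also called in 17 of 26 alternatives. Those 17 include the 5 alternatives added after their calls had been seen. The call was lost in 9, all of them among the 21 planned. The number of members called was 0 with library totals, with limma on log2(RPKM + 1) or log2(RPKM + 0.1), with the muscle or erythroid covariate and when both cartilage-rich libraries were dropped, and 2 with DESeq2. Leaving out 1 library gave 0 to 1. Over all genes 238 were called, against 829 with DESeq2, 131 with limma on log2(RPKM + 1), 0 when both cartilage-rich libraries were dropped (2 libraries a group remained), 78 with the muscle covariate, 27 with the erythroid covariate and 23 to 175 without 1 library. Cdkn2b ran from -0.38 to 0.35 without 1 library, turning to 0.35 without wild type replicate 3, and it was 0.47 without both cartilage-rich libraries, 0.35 with the erythroid and 0.098 with the Y-linked covariate. Cdkn2d was -0.012 with the muscle covariate. The causes were not tested. Cdkn1b, Cdkn1c, Cdkn2c and Cdkn3 kept their direction in all 26.

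Of the 26 alternatives 5 were added after the data were seen, all with legacy = TRUE. They are the settings compared before legacy = FALSE was chosen whose counts differed: 226 calls with the default, 233 with a common dispersion, 219 with a trended one, 228 with TMMwsp factors and 224 with factors computed before the filter. The adjusted p of Cdkn1a lay between 0.025 and 0.028 in all 18 settings compared (edgeR). Overlap in RPKM and the order with M21 lengths were also added after the data were seen. No paired analysis was possible because the labels carry no replicate numbers that the genotypes share. For Cdkn2a, counting error alone leaves ratios from 0.693 to 2.13 open to these counts.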
